A study of Mus musculus with 11 samples.

Results

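The alanine tRNA genes were taken as all rows of the tRNA count tables whose name carries Ala after the last hyphen, which gave 40 gene copies out of 433 tRNA gene copies. By anticodon they were 19 copies of AlaAGC, 10 of AlaCGC and 11 of AlaTGC. Small RNA libraries had been made from the frontal lobe of the brain of C57BL/6 mouse embryos that were wild-type (WT) or lacked the RNA methyltransferase NSUN2 (Nsun2-/-), with 4 WT and 4 Nsun2-/- samples at E18.5 (E for embryonic day), and 1 WT and 2 Nsun2-/- samples at E13.5. No other allele or treatment is named, and the study worked with more than 1 Nsun2 line without its labels saying which line or litter these libraries came from, so p-values measure the spread between these samples only. The files hold tRNA counts and no messenger RNA, so neither the loss of Nsun2 nor the tissue could be checked in them.

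Alanine tRNAs carry alanine to the GCN codons. The alanyl-tRNA synthetase recognizes them by a G-U pair in the acceptor stem, so that all isoacceptors, which differ in the anticodon, are charged by the same enzyme. In AlaAGC the first anticodon base is deaminated to inosine, which lets it pair with several bases at the codon end, while AlaTGC and AlaCGC read codons ending in purines. Eukaryotic alanine tRNAs also carry 1-methylinosine next to the anticodon, and reverse transcriptases often misread that base. NSUN2 places 5-methylcytosine in many tRNAs, mostly in the variable loop, and tRNAs without it are known to be cut more readily into fragments.

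The copies of one isoacceptor differ by few bases, and these bases decide to which copy a read can be assigned. The 5′ sequences of the copies with most AlaTGC and AlaCGC counts are shown because these copies are described below. Whether the base differences between them affected the results was not tested. They were taken from the tRNA fragments that the study lists as differing in abundance between the genotypes at E13.5 or E18.5. Capitals mark the bases that differ from chr5.trna1317-AlaTGC, or in that copy itself the bases that differ from chrX.trna375-AlaTGC.
chr5.trna1317-AlaTGC: ggggatgtagctcaGtggtagagcGca
chrX.trna375-AlaTGC: ggggatgtagctcaAtggtagagcAca
chr2.trna263-AlaCGC: ggggGtgtagctcagtggtagagcgTG
Over these 27 bases the sequences listed for the AlaTGC copies on chromosomes 5 and X were identical at 25 positions. They differed by G15A and G25A, counted from 1 at the 5′ end. The sequence listed for chr2.trna263-AlaCGC differed from that of chr5.trna1317-AlaTGC by A5G, C26T and A27G. These are fragment sequences, mapped by the authors with mismatches allowed, and the bases of the genes themselves were not compared. The first 22 bases listed for chr5.trna1317-AlaTGC are also the sequence listed for both chr11.trna2022-AlaTGC and chr13.trna71-AlaAGC.
chr11.trna2022-AlaTGC and chr13.trna71-AlaAGC: ggggatgtagctcagtggtaga
By these listed sequences, a read that holds only this 5′ end cannot be told apart between copies of AlaTGC and AlaAGC on chromosomes 5, 11 and 13. Reads with the sequence listed for chrX.trna375-AlaTGC differ from all 3 if they reach position 15.

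Longer sequences were listed for chrX.trna375-AlaTGC in 4 forms that are equal except for the base after the anticodon. They are shown because that base lies where alanine tRNAs carry 1-methylinosine, and capitals mark the anticodon and the base that follows it.
chrX.trna375-AlaTGC, form 1: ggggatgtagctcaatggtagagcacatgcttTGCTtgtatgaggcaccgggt
chrX.trna375-AlaTGC, form 2: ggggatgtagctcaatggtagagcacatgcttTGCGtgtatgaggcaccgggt
chrX.trna375-AlaTGC, form 3: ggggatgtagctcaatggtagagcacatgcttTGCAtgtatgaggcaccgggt
chrX.trna375-AlaTGC, form 4: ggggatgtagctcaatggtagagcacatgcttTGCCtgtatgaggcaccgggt
Against the first form the others differed by T36G, T36A and T36C. Among the AlaAGC copies, the listed sequences that cover the anticodon show an A-to-G difference from the gene name in its first base, where inosine is known to be read as G. Capitals again mark the anticodon and the base after it.
chr13.trna966-AlaAGC: tggtagagcgctcgcttGGCTtgcga
chr3.trna29-AlaAGC: ttGGCTtgcgagaggtagcggga
The count tables add up all forms of a copy, and whether misread bases changed the number of reads assigned to it was not tested.

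The total tRNA count per sample lay between 4011 and 9827, of which 136 to 341 counts fell on alanine tRNAs. At E18.5 all Nsun2-/- samples had lower totals (4011 to 5027) than all WT samples (5387 to 5924). Up to 3 counts, 0.0506% to 0.0748% of a sample's counts at this stage, were allowed for a copy without a count. Over all tRNA genes the counts of Nsun2-/- samples 1 and 2 agreed within sampling noise at this stage (chi-square test, p = 0.933), but these samples held 12 and 39 counts of chr2.trna263-AlaCGC and were kept as separate samples. The counts come from bulk tissue, in which fewer cells of a type and less RNA per cell cannot be told apart.

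Counts were found for 23 of the 40 alanine copies, and 17 had no count in any of the 11 samples. This is 42.5% of the alanine copies, beside 25.7% of the 393 other tRNA gene copies. By their methods, the authors discarded reads that fitted more than 1 place equally well. Copies with identical sequences then lose their reads, and a copy without counts is not shown to be silent. Still, the same sequence of 22 bases is listed for chr11.trna2022-AlaTGC and chr13.trna71-AlaAGC. How this came about under that rule is not given in the sources used here. No count among the 62885 of all samples allows a share of up to 0.00477% of uniquely placed reads, for counting error only.

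All 12 alanine copies on chromosome 13 had counts, as did 105 of all 106 tRNA copies there. They lie in a cluster from position 21314455 to 21351708 with 6 copies and 597 counts over all samples, and in another from 23377518 to 23530637 with 6 copies and 182 counts (positions of the mouse build mm9, the build named for the tRNA annotation of the files). A cluster on the X chromosome from 132892141 to 133124975 held 13 copies, 6 of AlaCGC and 7 of AlaTGC. Of these 13, only chrX.trna375-AlaTGC, with 596 counts, and chrX.trna373-AlaCGC, with 5 counts, were seen, and 11 had no count. Of all 21 tRNA copies on the X chromosome, 13 had none. The other 6 copies without counts were AlaAGC copies on chromosomes 4, 9, 10 and 11. By anticodon, 13 of 19 AlaAGC copies, 5 of 10 AlaCGC copies and 5 of 11 AlaTGC copies had counts.

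**Figure D1:**
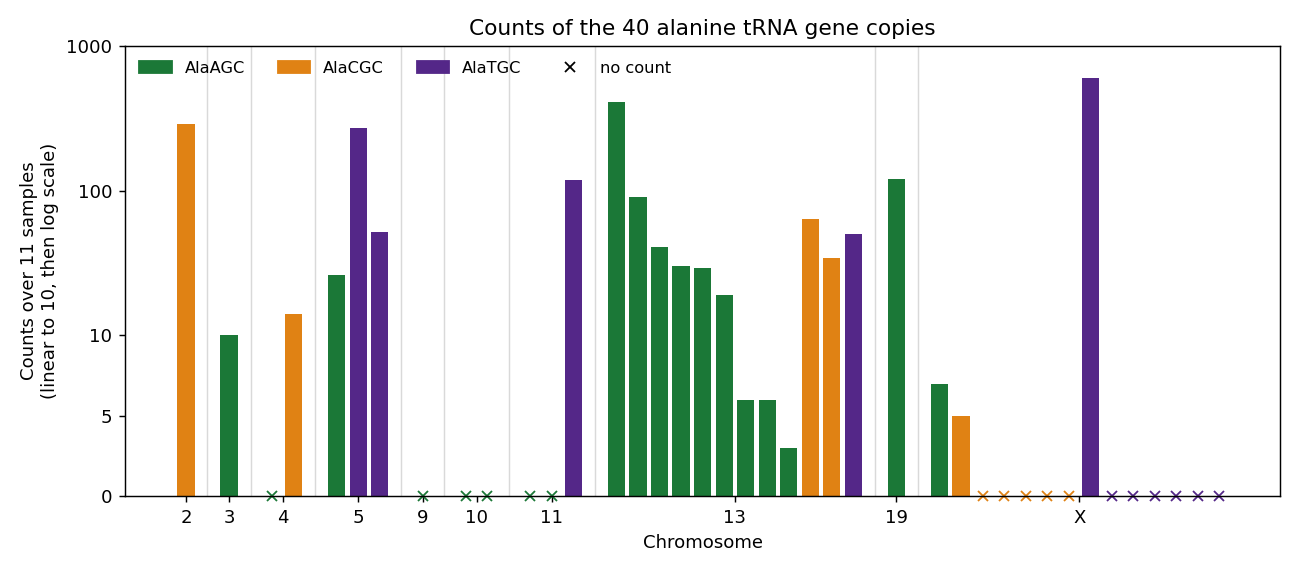
Counts summed over the 11 samples for each of the 40 alanine tRNA gene copies, grouped by chromosome and coloured by isoacceptor, on an axis that is linear up to 10 and logarithmic above; crosses mark copies with no count. All 12 copies on chromosome 13 had counts, while 11 of the 14 copies on the X chromosome had none.

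Few copies held most of the counts. The 4 highest copies, chrX.trna375-AlaTGC, chr13.trna66-AlaAGC, chr2.trna263-AlaCGC and chr5.trna1317-AlaTGC, made up 68.27% of the 2285 alanine counts. Each isoacceptor was led by 1 copy, namely chr13.trna66-AlaAGC (chr13:21314455-21314526, plus strand) with 51.19% of the AlaAGC counts, chr2.trna263-AlaCGC (chr2:57034489-57034560, plus strand) with 71.11% of the AlaCGC counts and chrX.trna375-AlaTGC (chrX:133124904-133124975, plus strand) with 54.93% of the AlaTGC counts. chr5.trna1317-AlaTGC (chr5:125884620-125884691, minus strand) had 269 counts and lies 5222 bp from chr5.trna702-AlaTGC on the opposite strand, which had 52. All these copies are 72 bases long, so their counts need no correction for length. As reads that fitted several places were discarded, copies can also differ in how many reads can be assigned to them. Whether this set the order of the copies was not tested. Next came chr19.trna8-AlaAGC with 121 counts, chr11.trna2022-AlaTGC (chr11:48647931-48648002, minus strand) with 118, chr13.trna963-AlaAGC with 90 and chr13.trna70-AlaCGC with 64. Further copies had 50 (chr13.trna68-AlaTGC), 41 (chr13.trna71-AlaAGC), 34 (chr13.trna955-AlaCGC), 30 (chr13.trna94-AlaAGC), 29 (chr13.trna67-AlaAGC), 26 (chr5.trna110-AlaAGC), 19 (chr13.trna966-AlaAGC), 14 (chr4.trna626-AlaCGC) and 10 counts (chr3.trna29-AlaAGC). The remaining 5 copies had 3 to 7 counts each.

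Together the alanine copies held 3.63% of all tRNA counts. The share was 3.96% ± 0.51 in Nsun2-/- and 3.60% ± 0.54 in WT brains at E18.5 (SD, n = 4 each), and at E13.5 it was 3.21% and 3.47% without NSUN2 and 3.41% in WT. The ranges overlapped at E18.5, with 3.39% to 4.54% in Nsun2-/- and 3.16% to 4.38% in WT brains. Between genotypes at E18.5 the alanine sum had a log2 difference of 0.19 (standard error 0.095, 95% interval -0.006 to 0.378, edgeR adjusted p = 0.235), beside 9.52% of the 21 amino acid sums that passed an adjusted p of 0.05. Without WT sample 3, which had the most alanine counts at E18.5 (239), it was 0.295 (edgeR adjusted p = 0.00928). With any other single sample left out it lay between 0.089 and 0.217 and did not pass (edgeR adjusted p between 0.201 and 0.691).

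AlaTGC was the most counted isoacceptor in 9 of the 11 samples, and AlaAGC in Nsun2-/- sample 1 and WT sample 4 at E18.5. AlaTGC had 71, 98, 104 and 69 counts in the Nsun2-/- samples 1 to 4 at E18.5 and 80, 86, 102 and 81 in the WT samples. AlaAGC had 75, 67, 65 and 39 counts in the Nsun2-/- samples and 71, 62, 81 and 103 in the WT samples, and AlaCGC had 19, 49, 42 and 28 counts in the Nsun2-/- samples and 27, 35, 56 and 26 in the WT samples. The counts of every isoacceptor overlapped between the genotypes. At E13.5, AlaTGC counts were 173 and 99 without NSUN2 and 122 in the single WT sample.

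The anticodon balance, the share of each isoacceptor in the alanine counts of a sample, overlapped between the genotypes at E18.5. AlaTGC made up 47.2% ± 3.5 of the alanine counts in Nsun2-/- and 43.3% ± 3.6 in WT brains (SD, n = 4 each, two-sided exact permutation test, p = 0.1714, adjusted p = 0.5143 over the 3 shares). AlaAGC made up 34.1% ± 7.7 and 39.2% ± 7.2 (exact permutation test, p = 0.3714, adjusted p = 0.5571), and AlaCGC 18.7% ± 5.0 and 17.5% ± 4.8 (exact permutation test, p = 0.7429, adjusted p = 0.7429). With 4 samples against 4, no p below 0.0286 could be reached. After adjustment over the 3 shares, a share that differed alone could not have passed 0.05, so the test cannot show that the balance was unchanged. The difference of AlaAGC, Nsun2-/- minus WT, was -5.12 percentage points with all samples, -8.91 without Nsun2-/- sample 1 (exact permutation test, p = 0.0571, the smallest that 3 samples against 4 can give, adjusted p = 0.171) and -1.82 without WT sample 4, and that of AlaTGC was 3.92 with all samples and 2.34 without WT sample 4. At E13.5 AlaTGC held 50.7% and 56.2% without NSUN2 (95% Wilson intervals 45.4% to 56.0% and 48.9% to 63.4%) and 52.6% in WT (46.2% to 58.9%).

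**Figure D2:**
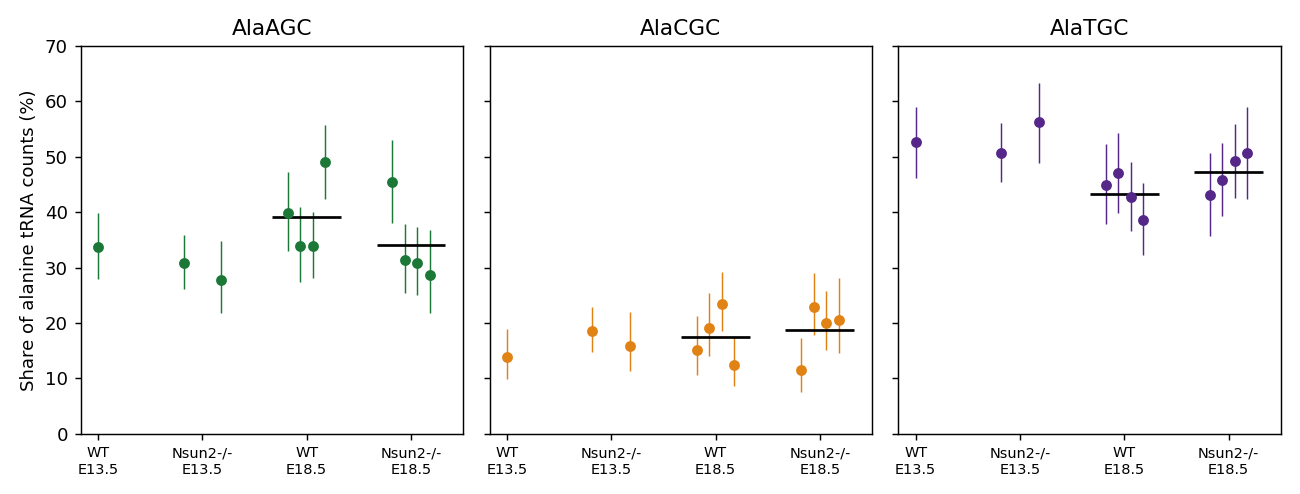
Share of AlaAGC, AlaCGC and AlaTGC in the alanine tRNA counts of each sample, in percent, with 95% Wilson intervals as vertical lines and the mean of groups of 4 as a horizontal line. The order AlaTGC, AlaAGC, AlaCGC held in the group means at E18.5 (47.2%, 34.1% and 18.7% in Nsun2-/- brains), and the points of the genotypes overlap in every panel.

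None of the 3 alanine isoacceptor sums passed an adjusted p of 0.05 between the genotypes at E18.5, beside 13.3% of the 45 isoacceptors tested. The log2 fold change was 0.33 for AlaTGC (standard error 0.12, 95% interval 0.081 to 0.585, edgeR adjusted p = 0.0692), 0.30 for AlaCGC (standard error 0.26, edgeR adjusted p = 0.538) and 0 for AlaAGC (standard error 0.159, 95% interval -0.331 to 0.331, edgeR adjusted p = 0.998). Their median was 0.30, against 0.032 over all isoacceptors tested. Without WT sample 3, AlaTGC had 0.433 (edgeR adjusted p = 0.0138). With any other single sample left out it lay between 0.233 and 0.367 and did not pass (edgeR adjusted p between 0.0648 and 0.326). The adjusted p of AlaTGC was 0.053 with the replicate number as a block (edgeR) and 0.411 with DESeq2. For comparison, listed isoacceptors of alanine, arginine, isoleucine, leucine, proline, serine, threonine and valine were grouped by the first anticodon base. Glycine isoacceptors were not in these lists. Of the 7 isoacceptors with A first that were tested, which include AlaAGC, 1 rose in Nsun2-/- brains, ProAGG with 0.545 (standard error 0.158, edgeR adjusted p = 0.0236), and none fell, with a median of 0.049. None of the 8 with T first and none of the 7 with C first passed the test, with medians of -0.09 and -0.012, and AlaTGC and AlaCGC had the highest log2 fold changes in their lists.

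The tested copies of AlaTGC had log2 fold changes of opposite sign between the genotypes at E18.5. Whether they passed the test depended on the processing and on single samples, as given below for each copy. The 4 alanine copies with enough counts to be tested at E18.5 were the leading copies of each isoacceptor and chr5.trna1317-AlaTGC. Of these 4, chrX.trna375-AlaTGC was higher and chr5.trna1317-AlaTGC lower in Nsun2-/- brains, beside 9.43% of the 106 copies tested that passed in either direction (5.66% higher and 3.77% lower). chr13.trna66-AlaAGC and chr2.trna263-AlaCGC did not pass the test.

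chrX.trna375-AlaTGC had 41, 63, 65 and 44 counts in the Nsun2-/- samples 1 to 4 at E18.5, and 41, 33, 53 and 37 in the WT samples. As shares of all tRNA counts these were 1.16% ± 0.19 and 0.731% ± 0.178 (SD, n = 4 each). Nsun2-/- sample 1, the lowest of its group at 0.922%, lay below WT sample 3 at 0.970%, so the groups overlapped. The log2 fold change was 0.705 (standard error 0.173, 95% interval 0.34 to 1.07, edgeR adjusted p = 0.0171). The call was lost without Nsun2-/- sample 3 (edgeR adjusted p = 0.0572), with upper-quartile normalization (edgeR adjusted p = 0.0731) and with the replicate number as a block (edgeR adjusted p = 0.0859).

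chr5.trna1317-AlaTGC had 14, 16, 17 and 15 counts in the Nsun2-/- samples at E18.5 and 29, 42, 27 and 29 in the WT samples, so that every Nsun2-/- sample lay below every WT sample. The shares of all tRNA counts were 0.342% ± 0.024 and 0.562% ± 0.111 (SD, n = 4 each), and after TMM normalization 7.55% of all copies tested had all Nsun2-/- samples below all WT samples. The log2 fold change was -0.695 (standard error 0.209, 95% interval -1.137 to -0.254, edgeR adjusted p = 0.0477). This call lay close to the threshold and was lost when any 1 of the 8 samples was left out (edgeR adjusted p between 0.0629 and 0.183). It was also lost with DESeq2 (adjusted p = 0.0976) and with the replicate number as a block (edgeR adjusted p = 0.0859). The same held without a filter, with all 11 samples in one fit and with the closest pair of each genotype averaged (edgeR adjusted p = 0.093, 0.0631 and 0.103). WT sample 2, with 42 counts, moved the value most, to -0.525 without it.

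Within AlaTGC, chrX.trna375-AlaTGC made up 62.1% ± 3.0 of the counts in Nsun2-/- brains (57.8% to 64.3%) and 46.8% ± 6.3 in WT brains (38.4% to 52.0%) at E18.5 (SD, n = 4 each). chr5.trna1317-AlaTGC made up 18.53% ± 2.67 (16.3% to 21.7%) and 36.8% ± 9.2 (26.5% to 48.8%). A test of copy usage, which asks whether the log2 fold change of a copy differs from that of its isoacceptor, gave -0.938 for chr5.trna1317-AlaTGC (edgeR diffSpliceDGE, adjusted p = 0.00986) and 0.462 for chrX.trna375-AlaTGC (edgeR diffSpliceDGE, adjusted p = 0.107), beside 2.22% of the 90 copies tested that passed. These are the only AlaTGC copies that entered the test, so their values are opposite in sign by construction. The adjusted p of chr5.trna1317-AlaTGC was 0.0798 without Nsun2-/- sample 2, 0.0859 without Nsun2-/- sample 3 and 0.145 without WT sample 2 (edgeR diffSpliceDGE).

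The ratio of the counts of chrX.trna375-AlaTGC to those of chr5.trna1317-AlaTGC was 2.93, 3.94, 3.82 and 2.93 in the Nsun2-/- samples 1 to 4 at E18.5, and 1.41, 0.786, 1.96 and 1.28 in the WT samples. On the log2 scale the means were 1.75 ± 0.23 and 0.37 ± 0.55 (SD, n = 4 each), a difference of 1.385. At E13.5 the ratio was 2.88 and 2.12 without NSUN2 and 3.24 in WT, so the WT samples at E18.5 were lower than the samples of all other groups. The ratio was formed after the values of both copies had been seen and is given as a description, with no test.

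**Figure D3:**
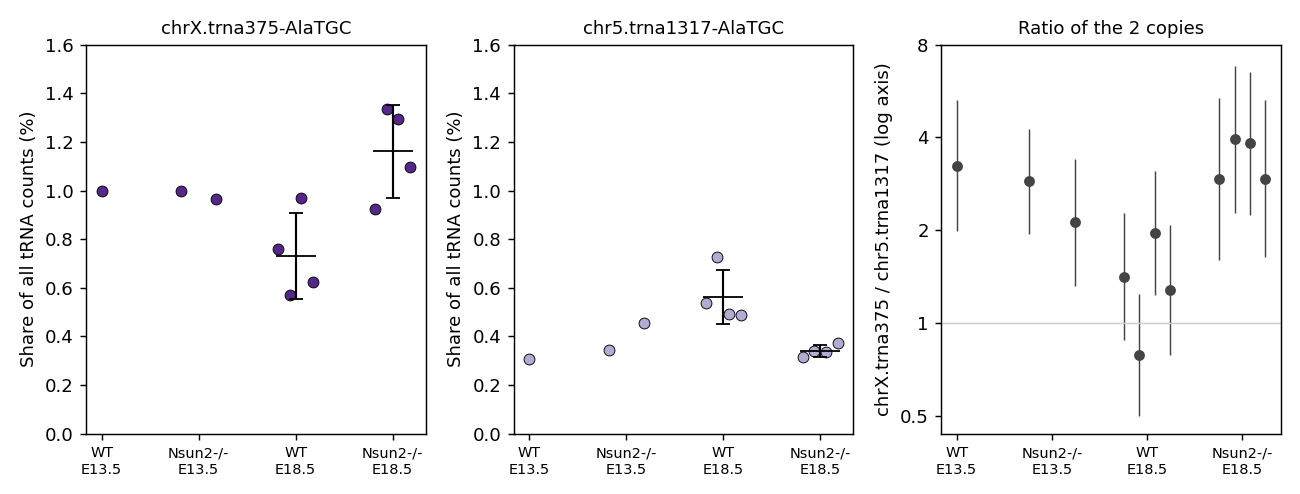
Share of all tRNA counts held by chrX.trna375-AlaTGC and chr5.trna1317-AlaTGC in each sample, in percent with mean and SD for groups of 4, and the ratio of their counts on a log axis with 95% intervals from counting error. WT samples at E18.5 had ratios of 0.786 to 1.96, below the 2.12 to 3.94 of all other samples, and the intervals of 1.96 and 2.12 overlapped.

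The X and 5 chromosomes showed the same pattern when all alanine copies on them were added up. Copies on the X chromosome held 30.1% ± 3.6 of the alanine counts in Nsun2-/- and 20.3% ± 2.9 in WT brains at E18.5 (SD, n = 4 each), and a mean of 30.01% without NSUN2 and 30.17% in WT at E13.5. Copies on chromosome 5 held 11.4% ± 1.4 and 18.8% ± 3.6 at E18.5, and 14.7% and 18.8% without NSUN2 and 14.2% in WT at E13.5. The 12 copies on chromosome 13 held 33.6% ± 7.2 and 37.9% ± 1.9 at E18.5, with overlapping ranges. chrX.trna375-AlaTGC contributed 596 of the 608 counts on the X chromosome and chr5.trna1317-AlaTGC 269 of the 347 on chromosome 5, so these sums largely restate the values of the 2 copies.

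The leading copies of the other isoacceptors gave no call between the genotypes. chr13.trna66-AlaAGC had 32, 43, 41 and 18 counts in the Nsun2-/- samples at E18.5 and 32, 36, 46 and 44 in the WT samples, and differed by 0.091 on the log2 scale (standard error 0.198, edgeR adjusted p = 0.84). chr2.trna263-AlaCGC had 12, 39, 25 and 26 counts in the Nsun2-/- samples and 19, 22, 44 and 18 in the WT samples, and differed by 0.315 (standard error 0.327, edgeR adjusted p = 0.772). With single samples left out the value of chr2.trna263-AlaCGC ran from 0.04 without Nsun2-/- sample 2 to 0.756 without WT sample 3 (edgeR adjusted p = 0.977 and 0.136). In both copies the samples of a genotype spread more widely than the means differed. The next copies of AlaAGC and AlaCGC, which had too few counts for the test at this stage, had 5 to 16 and 7 to 23 counts (chr19.trna8-AlaAGC, Nsun2-/- and WT), 3 to 9 and 6 to 12 counts (chr13.trna963-AlaAGC), and 0 to 10 and 5 to 7 counts (chr13.trna70-AlaCGC).

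At E13.5 no alanine copy or isoacceptor passed the test between the genotypes, and among all 155 copies tested 0% passed (12 copies had an unadjusted edgeR p below 0.05, none of them among the 8 alanine copies tested). The log2 fold changes were -0.126 for AlaAGC, 0.399 for AlaCGC and 0.061 for AlaTGC (standard errors 0.255, 0.398 and 0.191, edgeR adjusted p = 0.892, 0.66 and 0.892). chrX.trna375-AlaTGC, with 98 and 53 counts without NSUN2 and 68 in WT, had a value of -0.022 (95% interval -0.528 to 0.484, edgeR adjusted p = 0.943). chr5.trna1317-AlaTGC, with 34 and 25 counts without NSUN2 and 21 in WT, had 0.336 (95% interval -0.419 to 1.092, edgeR adjusted p = 0.857). All these values rest on 1 WT sample and borrow their spread from the other groups.

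The genotype effects at the 2 stages were compared with an interaction contrast. The difference, E18.5 minus E13.5, was 0.727 for chrX.trna375-AlaTGC (standard error 0.301, edgeR adjusted p = 0.33) and -1.03 for chr5.trna1317-AlaTGC (standard error 0.43, edgeR adjusted p = 0.33). Neither passed after adjustment, beside 0.645% of the 155 copies tested that did. Copy usage of chr5.trna1317-AlaTGC gave -1.304 in the same contrast (edgeR diffSpliceDGE, adjusted p = 0.427), where 0% of 147 copies passed. This contrast rests on 1 WT sample at E13.5. The differences of the isoacceptors were 0.099 for AlaAGC, -0.123 for AlaCGC and 0.246 for AlaTGC (edgeR adjusted p = 0.942, 0.981 and 0.74), beside 4.26% of the isoacceptors that passed.

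Between the stages in WT brains, chr11.trna2022-AlaTGC was the alanine copy that passed the test, in a comparison with 1 WT sample at E13.5 whose spread was taken from the other groups. It had 20 counts in the WT sample at E13.5 and 4, 6, 9 and 8 counts in the WT samples at E18.5. The log2 difference was -1.42 (standard error 0.467, 95% interval -2.371 to -0.468, edgeR adjusted p = 0.0302). This was 1 of 8 alanine copies tested, beside 19.4% of all 155 copies tested. In Nsun2-/- brains it had 26 and 10 counts at E13.5 and 9, 8, 13 and 5 at E18.5, with -0.384 (standard error 0.368, edgeR adjusted p = 0.543), and the difference between the genotypes was not significant (1.036, edgeR adjusted p = 0.57). The difference in WT brains was not called by DESeq2 (adjusted p = 0.195) or without a filter (edgeR adjusted p = 0.0618), nor without WT sample 1, 2 or 4 at E18.5 (edgeR adjusted p = 0.104, 0.0585 and 0.0559). Its copy usage in WT brains had a value of -1.099 (edgeR diffSpliceDGE, adjusted p = 0.177).

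Neither of the higher AlaTGC copies passed the test between the stages in WT brains. chrX.trna375-AlaTGC had -0.595 (standard error 0.242, edgeR adjusted p = 0.0885) and chr5.trna1317-AlaTGC 0.721 (standard error 0.335, edgeR adjusted p = 0.134), and their copy usage gave -0.275 and 1.042 (edgeR diffSpliceDGE, adjusted p = 0.625 and 0.0644), beside 5.44% of the copies that passed that test. With single WT samples at E18.5 left out, chrX.trna375-AlaTGC ranged from -0.755 to -0.356 and chr5.trna1317-AlaTGC from 0.625 to 0.954. Copy usage of chr5.trna1317-AlaTGC ranged from 0.888 to 1.173 in these fits, which all rest on 1 WT sample at E13.5. In Nsun2-/- brains the same copies had 0.131 and -0.309 (edgeR adjusted p = 0.695 and 0.515). No alanine copy passed in Nsun2-/- brains, beside 16.1% of all copies tested. The isoacceptor sums were not called in either genotype, beside 29.8% of the 47 isoacceptors in WT and 14.9% in Nsun2-/- brains. AlaTGC had -0.245 in WT and 0.002 in Nsun2-/- brains, AlaAGC 0.26 and 0.359, and AlaCGC 0.407 and 0.284 (edgeR adjusted p between 0.17 and 0.993). The comparison of stages in WT, that of genotypes at E13.5 and the interaction all use the same WT sample at E13.5.

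**Figure D4:**
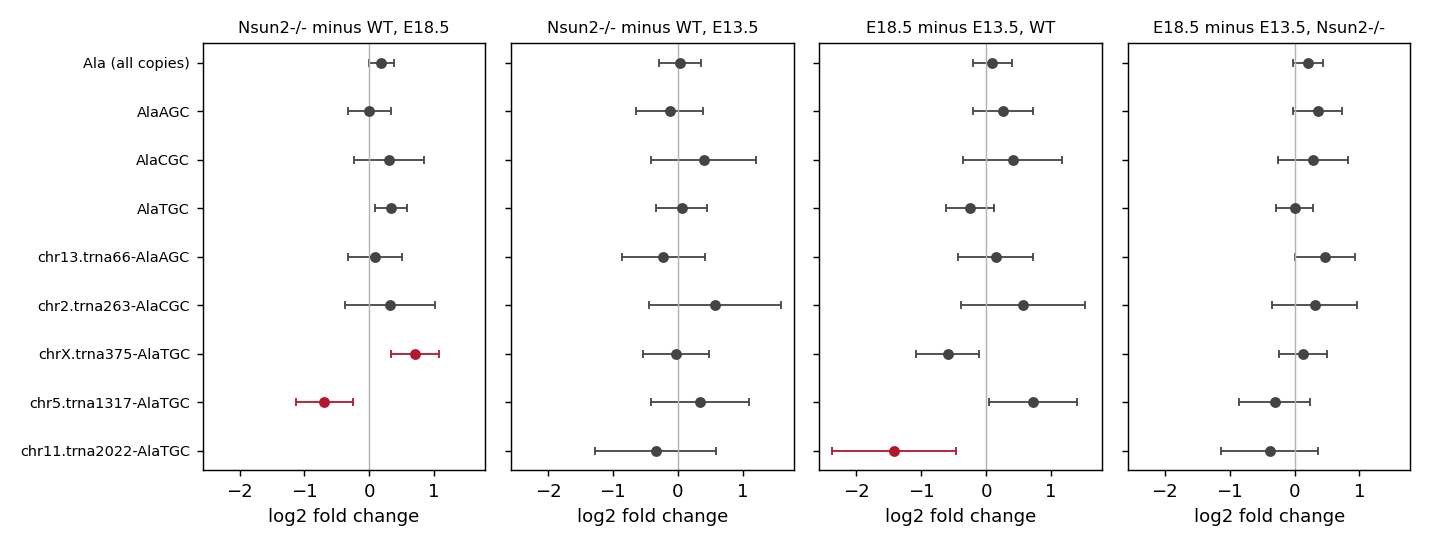
Log2 fold changes with 95% intervals for all alanine copies together, the 3 isoacceptors and the named copies in 4 comparisons, with an adjusted p below 0.05 in red. chrX.trna375-AlaTGC (0.705) and chr5.trna1317-AlaTGC (-0.695) lay on opposite sides of 0 at E18.5, and chr11.trna2022-AlaTGC (-1.42) was the only copy shown that passed between the stages.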

How the data were processed

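The libraries were made from size-selected, deaminoacylated small RNA. The authors trimmed adapters, mapped the reads with bowtie, discarded reads that fitted several places, tried unmapped reads again without their CCA ends, and deposited raw counts per tRNA gene made by featureCounts 1.4.4 without a strand setting. Each counted interval extends 20 bases past both ends of the tRNA, and whether 1 count is a read or a distinct read sequence is not given in the sources used here. The methods name GRCm38/mm10 and the file headers an mm9 annotation. Only 1 of the 40 alanine copies lies at the position of an alanine tRNA in RefSeq of GRCm38.p6, so positions are given as mm9, without further annotation.

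The counts, as deposited, were tested per copy, per isoacceptor and per amino acid with edgeR 4.0.16 (R 4.3.3; TMM, filterByExpr with a minimum count of 10, quasi-likelihood test, Benjamini-Hochberg adjustment over all features, threshold 0.05). E18.5 was fitted on its 8 samples and all other contrasts on 11 samples in 4 groups. Copy usage was tested with diffSpliceDGE. Anticodon shares were compared with exact permutation tests (scipy 1.17.1). The fits were tested on simulated data. Shares of single samples have 95% Wilson intervals, which cover counting error only. Alternatives were DESeq2 1.42.0, scaling by library size or by upper quartile, the table without a filter or with 10 or more counts required in each sample, a fit of E18.5 with all 11 samples, a replicate block, the closest pair of each genotype averaged, shares without the leading copies, and each sample left out. Copy usage in the contrasts other than that of the genotypes at E18.5, and the ratio of 2 copies, were added after seeing the data. Genes were named by a rule: all isoacceptor sums, every copy that passed the filter in either fit, and of the rest up to 10 with most counts. The members and lists were chosen with earlier results of these data known.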

Additional observations from a re-analysis of the deposited data

Results flagged for a closer look

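In each group of 4 samples at E18.5, the gap of the highest or lowest sample to its nearest neighbour was set against the range of the group and compared with Dixon's 95% critical value. Of 34 groups of values examined, 2 had a sample that stood apart, and chance alone gives about 1 in 20. AlaAGC held 45.5% of the alanine counts in Nsun2-/- sample 1, against 28.7% to 31.3% in the other Nsun2-/- samples. chr2.trna263-AlaCGC held 0.805% of all tRNA counts in WT sample 3, against 0.304% to 0.380% in the other WT samples. The cause of either value was not tested.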

How the results depend on the processing

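The 2 alanine calls per copy at E18.5 depended on the processing. Only 1 remained with DESeq2, upper-quartile normalization, no filter, all 11 samples in one fit, and the closest pair of each genotype averaged, none with the replicate number as a block, and 0 to 1 when 1 sample was left out. chr5.trna1317-AlaTGC had an edgeR adjusted p of 0.093 without a filter, 0.0631 with all 11 samples and 0.103 with pairs averaged, and chrX.trna375-AlaTGC 0.0731 with upper-quartile normalization. With the replicate block both had an edgeR adjusted p of 0.0859. Samples of the same number did not pair reliably (correlations of their deviations 0.248, 0.113, 0.203 and -0.103, and 4 of 8 samples correlated best with their own number), and with the block 3 of all copies were called against 10 without. Copy usage of chr5.trna1317-AlaTGC kept its call with the block (-0.928, edgeR diffSpliceDGE adjusted p = 0.0102), after scaling by library size or by upper quartile, in the unfiltered table and in that with a minimum of 10 per sample, with averaged pairs, and in the fit of 11 samples, and DESeq2 was not run for it. This copy-usage call was lost without Nsun2-/- sample 2, Nsun2-/- sample 3 or WT sample 2 (edgeR diffSpliceDGE adjusted p = 0.0798, 0.0859 and 0.145). Left-out samples moved the copy usage of chr5.trna1317-AlaTGC between -1.06 and -0.789. The log2 fold change of chrX.trna375-AlaTGC moved between 0.615 and 0.906, and that of chr5.trna1317-AlaTGC between -0.733 and -0.525. AlaTGC moved between 0.233 and 0.433, the alanine sum between 0.089 and 0.295 and AlaCGC between 0.074 and 0.611.

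AlaAGC at E18.5 lay at 0 and changed sign, with -0.041 with DESeq2, -0.059 with library size, -0.072 with upper-quartile normalization, -0.005 with at least 10 counts in every sample, -0.028 with all 11 samples, -0.041 with averaged pairs, and -0.157 to 0.113 with samples left out. Other values near 0 turned as well. chr13.trna66-AlaAGC was -0.034 with upper-quartile normalization and -0.051 to 0.249 with samples left out. At E13.5 AlaTGC was -0.01 with library size and -0.043 with upper-quartile normalization, and chrX.trna375-AlaTGC 0.044 with DESeq2, 0.043 without a filter and -0.023 to 0.025 with samples left out. Between stages in Nsun2-/- brains AlaTGC was -0.013 with DESeq2 and -0.065 to 0.094 with samples left out. The interaction of AlaCGC ranged from -0.287 to 0.174 and that of chr2.trna263-AlaCGC from -0.518 to 0.137, and the balance differences of AlaCGC from -0.52 to 3.6, of AlaAGC from -8.91 to -1.82 and of AlaTGC from 2.34 to 5.31 percentage points, all with samples left out, while the balance difference of AlaTGC was -1.15 without the leading copy of each isoacceptor. In WT brains between stages, no alanine copy was called with DESeq2 or without a filter, and 0 to 2 with samples left out, in Nsun2-/- brains 0 to 1. The cause of these changes was not tested. chr5.trna1317-AlaTGC had 14 to 42 counts per sample at E18.5.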
